A study of Mus musculus with 6 samples.

Results

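The Wnt ligands, their Frizzled receptors and the proteins that make, receive and relay a Wnt signal were followed in mouse embryonic stem (ES) cells after loss of Dcr, listed on the array as Dicer1, the RNase that matures most miRNAs. The set holds every gene of the array annotation named Wnt or Fzd with a number, which gave 19 ligands and 10 receptors, plus 16 named genes of Wnt secretion, reception and beta-catenin control. These 45 genes, of 18193 genes with a name of their own, were measured by 103 probe sets, and 15 of them by 1 probe set only. Both groups came from a feeder-free ES cell line with floxed Dcr alleles, kept on gelatin, so the alleles were intact until recombination. Dcr KO cells were transfected with GFP and Cre recombinase, Dcr WT cells with GFP alone, and RNA was taken 5 days later from 3 biological replicates of each. The Dcr KO cells were a polyclonal population that could still hold undeleted cells. Cre was given only with the deletion, and the effects of Cre itself and of Dcr loss cannot be told apart.

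Wnt proteins are secreted glycoproteins that carry a lipid. Porcn attaches the lipid in the endoplasmic reticulum and Wls carries the finished ligand to the cell surface, where it binds a Frizzled receptor and an Lrp5 or Lrp6 co-receptor. Without ligand, a destruction complex of Apc, Axin and the kinases Csnk1a1 and Gsk3 marks beta-catenin for degradation, and with ligand the dishevelled proteins block that complex, so that beta-catenin accumulates and acts on target genes with TCF factors. In mouse ES cells Wnt signalling is known to favour self-renewal, in part by relieving the repression of pluripotency genes by Tcf7l1.

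The miRNAs of the mir-295 cluster, abundant in ES cells, need Dcr to mature, and the study predicted targets from their shared AAGUGC seed. Their mature sequences are shown because 3 of the 45 genes, Wls, Apc and Fzd6, are on that list of predicted targets, which was drawn up in part from these arrays and is therefore no independent evidence of direction. The study also counts miR-292-3p among the cluster members with this seed, but it had no entry among those used here and is not shown. RefSeq (GRCm38.p6) places the 5 matched here on chromosome 7, plus strand, with the first at chr7:3218674-3218697 and the last at chr7:3220815-3220837. They are written 5′ to 3′ with the seed, bases 2 to 8, in capitals.
mmu-miR-290a-3p: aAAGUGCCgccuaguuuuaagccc
mmu-miR-291a-3p: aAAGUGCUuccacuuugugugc
mmu-miR-291b-3p: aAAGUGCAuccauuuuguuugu
mmu-miR-294-3p: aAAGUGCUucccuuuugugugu
mmu-miR-295-3p: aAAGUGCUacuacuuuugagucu
The 7-base seed is AAGUGCU in 3 of them (miR-291a-3p, miR-294-3p and miR-295-3p), and it ends in C in miR-290a-3p and in A in miR-291b-3p. No transcript was searched for sites that pair with these seeds.

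Expression is given as log2 of the GCRMA signal, a background-corrected and normalized array intensity, and a gene's value is the mean over its probe sets. Dicer1 itself measured 6.33, 6.59 and 5.92 on the 3 Dcr KO arrays, against 7.78, 7.89 and 7.16 on the Dcr WT arrays, without overlap. It fell by 1.33 (SE 0.23, limma adjusted p = 0.0134), to 0.40 times the Dcr WT level. That is a mean of 2 bright probe sets of unlike size. They gave -1.84 and -0.82 (limma adjusted p = 0.0138 and 0.0908 over probe sets), both without overlap. Of 8782 genes bright enough to test (a mean of at least 16 on the linear scale, 4 in log2), 607 rose and 564 fell in Dcr KO cells (limma with Benjamini-Hochberg adjustment, called under 0.05), and the median difference over all of them was -0.02. All 10 pluripotency markers reached the minimum on the Dcr WT arrays. Their summed level lay at 14.98 to 15.04 in Dcr KO and 14.85 to 14.98 in Dcr WT cells. Within that sum single markers went apart, though 0 of the 10 were called in either direction. Pou5f1 (difference 0.38), Sox2 (0.33) and Zfp42 (0.29) lay above Dcr WT on every Dcr KO array. Tdgf1 (-0.34) and Utf1 (-0.25) lay below on every one, and the rest overlapped. Of all tested genes, 17.7% lay above and 21.2% below in this way. Each limma p-value sets a gene's difference against the spread between biological replicates, moderated over all genes. The replicates share a floxed ES cell line, so the spread between lines is not covered. The smallest two-sided p of an exact permutation test of 3 arrays against 3 is 0.1, so that test could call no gene. The study's methods name no test per gene, and limma's fit over all genes was used.

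Of the 3 genes called, 2 were the only secretion genes of the set. Both secretion genes, Porcn and Wls, rose, 1 ligand, Wnt6, rose with them, and no receptor, co-receptor, dishevelled, destruction complex, beta-catenin or TCF gene passed the test in either direction. Of the 45 genes, 22 reached the minimum for testing and 23 did not. Of the 22 tested, 3 were higher in Dcr KO cells (13.6%, where 6.91% of all tested genes were), 0 were lower (6.42% of all tested genes) and 19 did not pass. Before adjustment limma gave 4 higher and 0 lower at a p under 0.05, beside 14.7% and 17.3% of all tested genes. The arrays of the groups did not overlap for 4 genes that lay above in Dcr KO (Porcn, Wls, Wnt6 and Wnt9a), where 17.7% of all tested genes did so, and for 2 that lay below (Dvl1 and Tcf7l1), where 21.2% did. Of the 22, Wnt9a reached the minimum only through its Dcr KO arrays and Wnt8a only through its Dcr WT arrays, so their place in these counts is no support for a direction. Differences ran from -0.57 for Wnt8a to 1.19 for Porcn, with a median of 0.14. Without the secretion pair, 1 of the remaining 20 was higher (5.00%) and the median was 0.12. The genes were chosen with earlier results known and the pair holds 2 of the 3 calls, so that lower share follows from the choice.

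The study also counted genes up at least 1.2-fold among those with an expression of 16 or more on wild-type arrays. Here that fold was applied to group means in both directions, among genes whose Dcr WT mean was 16 or more. This took in 22 of the 45 genes. Of these, 3 were up at least 1.2-fold (13.6%), beside 18.1% of the 8781 genes that met that level. Another 3, Wnt8a, Dvl1 and Wnt5b, were down at least 1.2-fold (13.6%), beside 22.0% of all. No test goes with these counts, and they moved with the processing: with each gene read by its brightest probe set 9 of 29 were up and 5 down, without Dcr WT replicate 1 the count up was 7 of 21, and without Dcr WT replicate 2 the count down was 1.

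**Figure D1:**
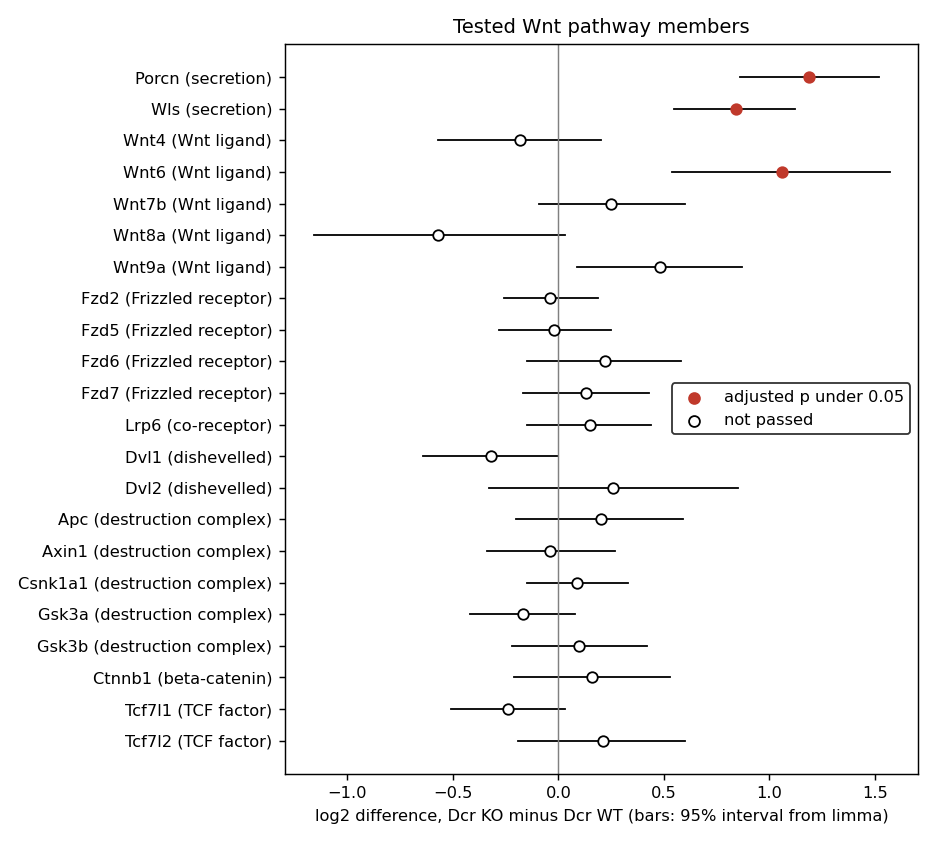
Log2 difference (Dcr KO minus Dcr WT, horizontal axis) of each of the 22 tested genes, ordered by role from secretion at the top to TCF factors at the bottom, with 95% intervals from limma; filled points passed at an adjusted p under 0.05. The points for Porcn (1.19), Wnt6 (1.06) and Wls (0.84) are the filled ones, and all other points lie between -0.57 and 0.48.

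Porcn is the acyltransferase that adds palmitoleate to Wnt proteins, and it was read by 1 probe set. It measured 7.67, 7.74 and 7.36 in Dcr KO, against 6.20, 6.58 and 6.42 in Dcr WT cells. The lowest Dcr KO array stood above the highest Dcr WT array by more than either group's own spread. Means were 7.59 ± 0.20 in Dcr KO and 6.40 ± 0.19 in Dcr WT cells (SD, n = 3 each), a rise of 1.19 (SE 0.14, 95% interval 0.86 to 1.52) or 2.28-fold, with a limma adjusted p of 0.00446. Under the 14 other settings tried the adjusted p stayed between 0.00354 and 0.0248.

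Wls (Wntless) is the membrane carrier that takes lipid-bearing Wnts from the Golgi to the cell surface, and 4 probe sets read it. Its gene value was 7.22, 7.35 and 7.61 in Dcr KO, against 6.57, 6.49 and 6.60 in Dcr WT cells, again without overlap. The rise was 0.84 (SE 0.12, 95% interval 0.55 to 1.12) or 1.79-fold, with a limma adjusted p of 0.0081. One of the 4 probe sets, near the floor of the array, pulled that mean down, with 1.18 in Dcr KO and 1.21 in Dcr WT cells.

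The 3 bright Wls probe sets gave larger differences than the gene mean. The first measured 10.16, 10.19 and 10.59 in Dcr KO, against 9.07, 9.09 and 9.17 in Dcr WT cells, a difference of 1.2. The second measured 9.70, 9.77 and 10.10 in Dcr KO, against 8.64, 8.68 and 8.78 in Dcr WT cells, a difference of 1.16. The third measured 7.95, 8.18 and 8.51 in Dcr KO, against 7.40, 6.92 and 7.27 in Dcr WT cells, a difference of 1.02. None of the 3 had overlapping groups, and Dcr KO replicate 3 was the highest array in each. Over these bright probe sets alone, a choice made after seeing the data, Wls rose by 1.13 (adjusted p = 0.00482).

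**Figure D2:**
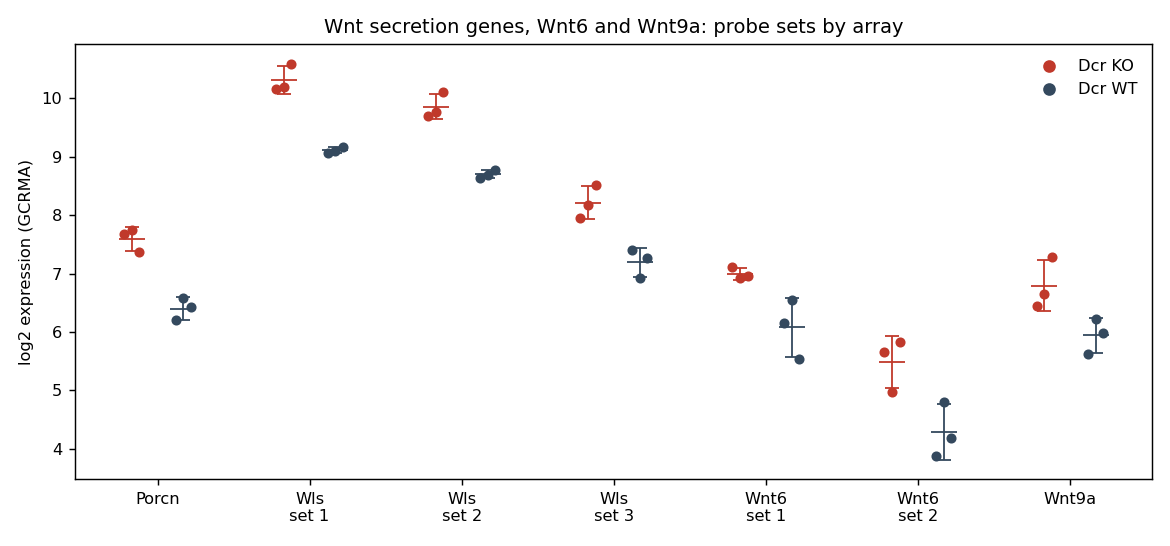
Log2 expression (vertical axis) of the bright probe sets of Porcn, Wls, Wnt6 and Wnt9a on each array, Dcr KO (red) left of Dcr WT (blue-grey) in each pair; points are single arrays, and bars the mean ± SD of 3 arrays. Every Dcr KO point lies above every Dcr WT point in all 7 probe sets, by the least in 1 Wnt6 probe set (4.98 against 4.80) and in Wnt9a (6.44 against 6.22).

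Of the 19 Wnt ligands, 5 were bright enough to test, and they did not move together. Wnt6 rose, the values of Wnt9a and Wnt7b lay above and those of Wnt4 and Wnt8a below Dcr WT without passing, and the median difference of the 5 was 0.25. Wnt6, a ligand made by many embryonic epithelia, measured 6.38, 5.95 and 6.39 in Dcr KO, against 5.02, 5.67 and 4.87 in Dcr WT cells. The groups did not overlap, with Dcr KO replicate 2 and Dcr WT replicate 2 the closest. Means were 6.24 ± 0.25 in Dcr KO and 5.18 ± 0.43 in Dcr WT cells (SD, n = 3 each), a rise of 1.06 (SE 0.22, 95% interval 0.54 to 1.57) or 2.08-fold, with a limma adjusted p of 0.0238. Its 2 probe sets gave differences of 0.91 (7.11, 6.92 and 6.95 in Dcr KO, against 6.16, 6.54 and 5.54 in Dcr WT cells) and 1.2 (5.65, 4.98 and 5.82 in Dcr KO, against 3.87, 4.80 and 4.19 in Dcr WT cells). The name of the second marks probes that may also bind other transcripts.

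The Wnt6 call was the least firm of the 3. Its adjusted p was 0.0585 without Dcr KO replicate 1, 0.0626 without Dcr KO replicate 3, 0.0668 without Dcr WT replicate 1 and 0.0835 without Dcr WT replicate 3, with differences of 0.90 to 0.98. The call was kept without Dcr KO replicate 2 (adjusted p = 0.0452) and without Dcr WT replicate 2 (adjusted p = 0.0116), where the differences were 1.2 and 1.30.

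Wnt9a, a ligand known from joint and skeletal development, had the next largest rise in value. Its Dcr WT mean of 3.89 was under the minimum and its Dcr KO mean of 4.37 above it, so it was tested only through the group where it was higher. It measured 4.18, 4.17 and 4.76 in Dcr KO, against 3.79, 3.93 and 3.95 in Dcr WT cells, which do not overlap. The difference was 0.48 (SE 0.17, 95% interval 0.09 to 0.87) and did not pass (adjusted p = 0.0955). Its bright probe set measured 6.44, 6.65 and 7.29 in Dcr KO, against 5.62, 6.22 and 5.99 in Dcr WT cells, a difference of 0.85 (adjusted p = 0.0884 over probe sets), while the other, near the floor, gave 1.94 in Dcr KO and 1.83 in Dcr WT cells. The gene value is the mean of these 2 probe sets, so it is no separate reading beside the bright one. Neither reached the threshold.

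Wnt8a, a ligand of the early embryo's posterior axis, had the largest fall in value among the 22 genes. It measured 4.39, 4.0 and 3.40 in Dcr KO, against 4.63, 4.72 and 4.14 in Dcr WT cells. The groups overlapped by 1 array on each side, and the difference of -0.57 (95% interval -1.16 to 0.03) did not pass (adjusted p = 0.175). Wnt4, which acts in kidney and gonad formation, differed by -0.18 (95% interval -0.57 to 0.20, adjusted p = 0.482). Wnt7b, known from lung and placenta, differed by 0.25 (95% interval -0.09 to 0.60, adjusted p = 0.28), and its 1 bright probe set by -0.09, so its direction depends on a dim probe set.

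The other 14 ligands stayed under the minimum for testing, with 9 further genes of the set. The ligands were Wnt1, Wnt2, Wnt2b, Wnt3, Wnt3a, Wnt5a, Wnt5b, Wnt7a, Wnt8b, Wnt9b, Wnt10a, Wnt10b, Wnt11 and Wnt16, and the others were Fzd1, Fzd3, Fzd4, Fzd8, Fzd9, Fzd10, Lrp5, Dvl3 and Btrc. Array values over the 23 ran from 1.22 to 4.35 and their means from 1.41 to 3.77. A mean under the minimum does not show that a transcript is absent. For Btrc, the F-box protein that ubiquitinates beta-catenin, 1 of 5 probe sets measured 7.68 in Dcr KO and 7.71 in Dcr WT cells. Bright probe sets were also averaged with dim ones for Fzd1 (difference 0.35), Fzd10 (0.63), Wnt7a (0.48), Wnt5b (-0.61) and Fzd3 (-0.06 and -0.23). Each of these overlapped between the groups, and none passed in the fit over probe sets.

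Among these dim genes, 4 lay above Dcr WT on every Dcr KO array (Wnt5a, Wnt10a, Fzd8 and Fzd10) and Fzd4, a receptor of retinal vessels, lay below on every one. Among all 9411 genes under the minimum, 9.20% lay above and 9.97% below in this way. With no minimum set, 0 of the 23 passed, and the smallest limma adjusted p was 0.0776, for Wnt5a. Wnt5a, the ligand best known for signalling without beta-catenin, had 1 probe set at 4.24, 4.21 and 4.69 in Dcr KO, against 3.42, 3.45 and 3.62 in Dcr WT cells. That probe set stood 0.88 higher in Dcr KO with no overlap, while its 3 other probe sets overlapped between the groups.

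No receptor passed the test. Of 10 Frizzled genes, 4 were tested, 0 passed, and their median difference was 0.06. Fzd2 differed by -0.04 (95% interval -0.26 to 0.19), and Fzd5 by -0.02 (95% interval -0.28 to 0.25). For Fzd2 the bright probe sets ran from -0.19 to 0.23, and for Fzd5, a receptor of the early embryo, from -0.04 to 0.01. Fzd7, the Frizzled most often linked to ES cell self-renewal, differed by 0.13 (95% interval -0.17 to 0.43, adjusted p = 0.519), and its bright probe set by -0.03. Fzd6, on the list of predicted targets, differed by 0.22 (95% interval -0.15 to 0.58, adjusted p = 0.373). The co-receptor Lrp6 differed by 0.15 (95% interval -0.15 to 0.44, adjusted p = 0.458), with probe sets at -0.04 and 0.33.

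The dishevelled proteins, which carry the signal from the receptors to the destruction complex, went apart in value. Dvl1 measured 7.78, 7.62 and 7.33 in Dcr KO, against 7.82, 8.04 and 7.83 in Dcr WT cells. Its arrays did not overlap in the gene value, but the difference of -0.32 (95% interval -0.64 to 0.00) did not pass (adjusted p = 0.157). Both probe sets gave nearly the same size, -0.33 and -0.31, and each taken alone overlapped between the groups. Dvl2 differed by 0.26 (95% interval -0.33 to 0.85, adjusted p = 0.512), a mean of probe sets at -0.08 and 0.60, so that its sign rests on the dimmer of them.

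In the destruction complex, 5 of 6 genes were tested and 0 passed, with differences of -0.17 to 0.20 and a median of 0.09. Apc, the scaffold that is lost in intestinal tumours and is on the list of predicted targets, measured 7.01, 7.44 and 7.55 in Dcr KO, against 7.37, 6.96 and 7.08 in Dcr WT cells, with overlap (difference 0.20, 95% interval -0.20 to 0.59, adjusted p = 0.464). Its 3 bright probe sets disagreed in sign, from -0.46 to 0.34. The lowest of them measured 7.54, 8.11 and 7.76 in Dcr KO, against 8.29, 8.49 and 8.01 in Dcr WT cells, and missed the threshold in the fit over probe sets (adjusted p = 0.175).

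Axin1, the scaffold that limits assembly of the complex, differed by -0.04 (95% interval -0.34 to 0.27), with probe sets at -0.17 and 0.09. Of the kinases that phosphorylate beta-catenin, Csnk1a1, the priming kinase, differed by 0.09 (95% interval -0.15 to 0.33), over bright probe sets from -0.19 to 0.37. Gsk3a differed by -0.17 (95% interval -0.42 to 0.08) and Gsk3b by 0.10 (95% interval -0.22 to 0.42). The 5 bright probe sets of Gsk3b all lay above 0, from 0.01 to 0.29. None of these intervals reaches a change as large as that of Wls.

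Beta-catenin itself, Ctnnb1, measured 11.25, 11.30 and 11.39 in Dcr KO, against 11.49, 10.86 and 11.11 in Dcr WT cells. The Dcr KO arrays lay inside the Dcr WT range, and the difference was 0.16 (95% interval -0.21 to 0.53, adjusted p = 0.521). Its 3 bright probe sets gave 0.07 to 0.25. The arrays measure its transcript and say nothing of the protein, which the destruction complex controls.

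The TCF factors, which bring beta-catenin to DNA, had differences of opposite sign. Tcf7l1, the repressor of the family that is prominent in ES cells, measured 9.16, 9.17 and 9.0 in Dcr KO, against 9.32, 9.53 and 9.20 in Dcr WT cells. All Dcr KO arrays lay lower, but the difference of -0.24 (95% interval -0.51 to 0.03) did not pass (adjusted p = 0.203). Its probe sets gave -0.32 without overlap and -0.16 with overlap. Tcf7l2 differed by 0.21 (95% interval -0.19 to 0.60, adjusted p = 0.441), over bright probe sets from -0.01 to 0.45. The brightest of them measured 6.90, 6.85 and 6.90 in Dcr KO, against 6.49, 6.54 and 6.27 in Dcr WT cells without overlap, and with each gene read by its brightest probe set Tcf7l2 passed (0.45, adjusted p = 0.0356).

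**Figure D3:**
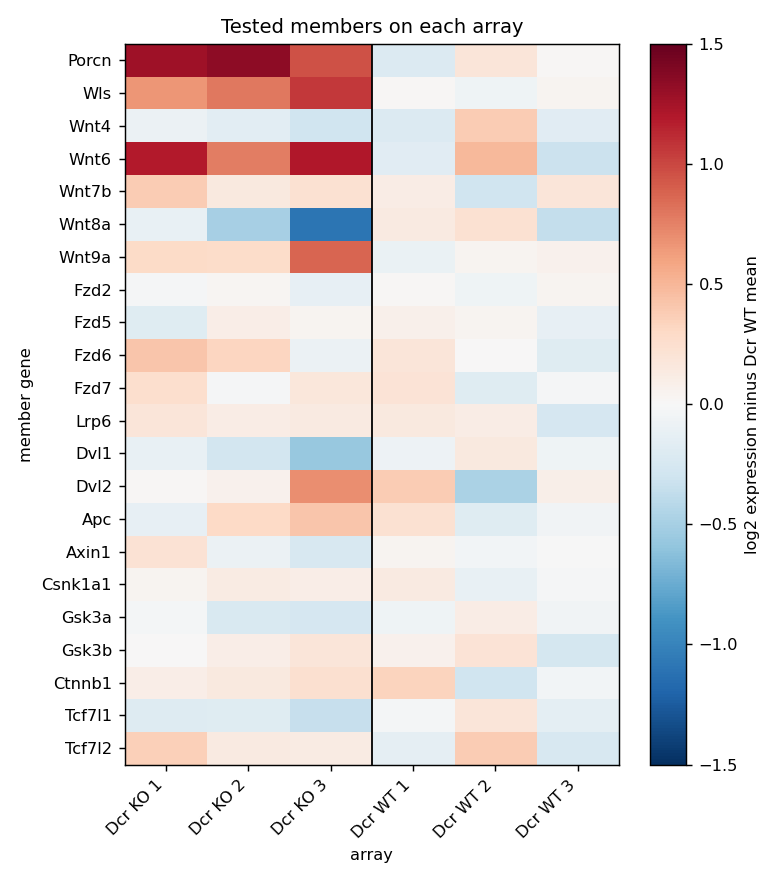
Log2 expression of the 22 tested genes (rows, from secretion to TCF factors) on each array (columns, Dcr KO left of Dcr WT), as the deviation from the Dcr WT mean of the gene; the colour scale runs from blue (below) to red (above). Porcn, Wls and Wnt6 are red on all 3 Dcr KO arrays, while the rows from Fzd2 down are pale and mixed. The median over genes is 0.07, 0.11 and 0.14 on the Dcr KO arrays, and 0.05, 0.04 and -0.06 on the Dcr WT arrays.

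Markers of other cell types were read on the same arrays, since in a bulk culture fewer cells of a type and less RNA per cell cannot be told apart. Among neural markers the groups differed for some, and 3 of 6 reached the minimum on the Dcr WT arrays. The summed level of all 6 was 9.49 to 9.73 in Dcr KO and 8.73 to 9.05 in Dcr WT cells. Tubb3 and Neurod1, the brightest in that sum at 8.28 and 6.89 in Dcr WT cells, rose (limma adjusted p = 0.01 and 0.0296). Neurod1 is also on the study's list of predicted targets. Nes overlapped between the groups (difference -0.07, limma adjusted p = 0.759). Sox1, Pax6 and Map2 stayed under the minimum and were not tested. Each of them lay above Dcr WT on every Dcr KO array (differences 0.89, 0.58 and 0.21). Trophectoderm markers (4 of 7 at the minimum) summed to 14.14 to 14.26 in Dcr KO and 13.80 to 14.14 in Dcr WT cells, with Elf5, Hand1 and Cdx2 under it. Krt8 and Krt18, at 12.49 and 13.16 in Dcr WT cells, were by far the brightest in that sum. Krt18 (difference 0.30, not passed) and the dim Cdx2 (0.48) lay above on every Dcr KO array, and the others overlapped. Primitive streak markers (2 of 7) summed to 6.84 to 6.98 in Dcr KO and 6.89 to 7.73 in Dcr WT cells, primitive endoderm markers (1 of 6) to 5.57 to 5.70 in Dcr KO and 5.53 to 5.68 in Dcr WT cells, and fibroblast markers (1 of 6) to 5.96 to 6.09 in Dcr KO and 5.85 to 6.30 in Dcr WT cells. Within these last lists single markers went apart. Mixl1 (-0.64), Fgf8 (-1.52), Col1a2 (-0.71) and Thy1 (-0.62) lay below Dcr WT on every Dcr KO array. Postn (0.72), Dcn (0.65) and Gata6 (0.32) lay above on every one, and the rest overlapped. Of those without overlap only Mixl1 was bright enough to test, and it did not pass (limma adjusted p = 0.109). The part of any of these markers in the rise of Porcn, Wls and Wnt6 was not tested.

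A wider list of 112 other Wnt pathway genes set the 45 in context. Of 107 measured, 66 were tested, and 5 were higher in Dcr KO (7.58%), 4 lower (6.06%) and 57 did not pass, with a median difference of -0.06. Both shares lay close to those of all tested genes.

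Among secreted and membrane regulators, 2 of 11 tested were higher (18.2%) and 1 lower (9.09%), beside 6.91% and 6.42% of all tested genes. Notum, which removes the lipid that Porcn adds, measured 5.05, 5.72 and 5.85 in Dcr KO, against 3.05, 3.53 and 3.05 in Dcr WT cells, a difference of 2.33 (adjusted p = 0.00213) with a Dcr WT mean of 3.21. That level is under the minimum, so Notum was tested only through its Dcr KO arrays, and with the minimum set on Dcr WT means 4 of the other pathway genes were higher and 5 lower. Sfrp1, a secreted protein that binds Wnts and Frizzleds, measured 7.08, 6.98 and 6.91 in Dcr KO, against 6.46, 6.24 and 6.36 in Dcr WT cells, a rise of 0.63 or 1.55-fold (adjusted p = 0.0117, but 0.0507 without Dcr KO replicate 2 and 0.0748 with its brightest probe set). Cthrc1, a secreted glycoprotein linked to planar polarity signalling, fell by 0.71 (adjusted p = 0.025), to 8.07 ± 0.25 in Dcr KO, against 8.79 ± 0.17 in Dcr WT cells (SD, n = 3 each), a limma call that was lost under 4 of the 14 alternatives, the replicate block and the fits without Dcr KO replicate 2 (0.053), Dcr WT replicate 1 (0.064) and Dcr WT replicate 3 (0.086).

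Among partners of the destruction complex and of nuclear beta-catenin, 1 of 39 tested was higher (2.56%) and 3 lower (7.69%), with a median of -0.08. Of all tested genes, 6.91% were higher and 6.42% lower. Ctnnbip1, known as ICAT, keeps beta-catenin from binding TCF factors. It measured 5.90, 5.47 and 5.58 in Dcr KO, against 6.71, 6.95 and 6.79 in Dcr WT cells, a fall to 0.45 times the Dcr WT level (difference -1.16, SE 0.14, limma adjusted p = 0.00397) that kept its call under the 14 alternatives. Cby1, another antagonist that binds beta-catenin, measured 6.52, 6.39 and 6.47 in Dcr KO, against 6.88, 7.05 and 7.53 in Dcr WT cells, a difference of -0.69 (limma adjusted p = 0.0344). The Cby1 call was lost under 6 of the 14 alternatives, 5 of them with 1 array left out (any but Dcr WT replicate 1), with an adjusted p of up to 0.106 without Dcr KO replicate 2. 

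Of the gamma casein kinases, which can phosphorylate Lrp6, 1 fell and 1 rose. Csnk1g2 measured 7.97, 7.45 and 7.76 in Dcr KO, against 8.57, 8.71 and 8.44 in Dcr WT cells (difference -0.85, limma adjusted p = 0.0142). Csnk1g1, on the list of predicted targets, measured 5.62, 5.55 and 5.84 in Dcr KO, against 5.24, 5.07 and 4.96 in Dcr WT cells (difference 0.58, limma adjusted p = 0.0236). The Csnk1g1 call was lost without any 1 array except Dcr WT replicate 1, with an adjusted p of up to 0.0772 without Dcr WT replicate 3. Csnk1g3 differed by 0.01 (adjusted p = 0.94).

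Among genes of planar polarity and other Wnt receptors, 2 of 16 tested were higher (12.5%) and 0 lower, beside 6.91% and 6.42% of all tested genes. Before adjustment limma gave 3 higher and 1 lower at a p under 0.05, beside the 14.7% and 17.3% of all tested genes. Daam1, a formin that binds dishevelled and is on the list of predicted targets, rose by 0.53 or 1.45-fold (adjusted p = 0.0307), a call lost with the replicate block and without Dcr KO replicate 2 (0.0812), Dcr KO replicate 3 (0.0676), Dcr WT replicate 1 (0.0719) or Dcr WT replicate 3 (0.0938). Vangl1, a core membrane protein of planar polarity, rose by 0.43 or 1.35-fold at the edge of the threshold (adjusted p = 0.0483), a call lost under 11 of 14 alternatives, among them the loss of any 1 array except Dcr WT replicate 2 (up to 0.153 without Dcr KO replicate 2). Axin2, Znrf3 and Lef1, which respond to beta-catenin in many tissues, were looked at after their values were seen. They do not stand for all genes of the lists that may respond to it. Axin2 differed by -0.12 (adjusted p = 0.548), Znrf3 by 0.45 (adjusted p = 0.051) without overlap, and Lef1 stayed under the minimum. Of other genes on the lists, Notum rose as given above. Apcdd1 lay above on every Dcr KO array (0.28, limma adjusted p = 0.0875). The untested Rnf43 (-0.26) and Nkd2 (-0.55) lay below on every one, and the untested Nkd1 (0.01) and Dkk1 (-0.03) overlapped.

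**Figure D4:**
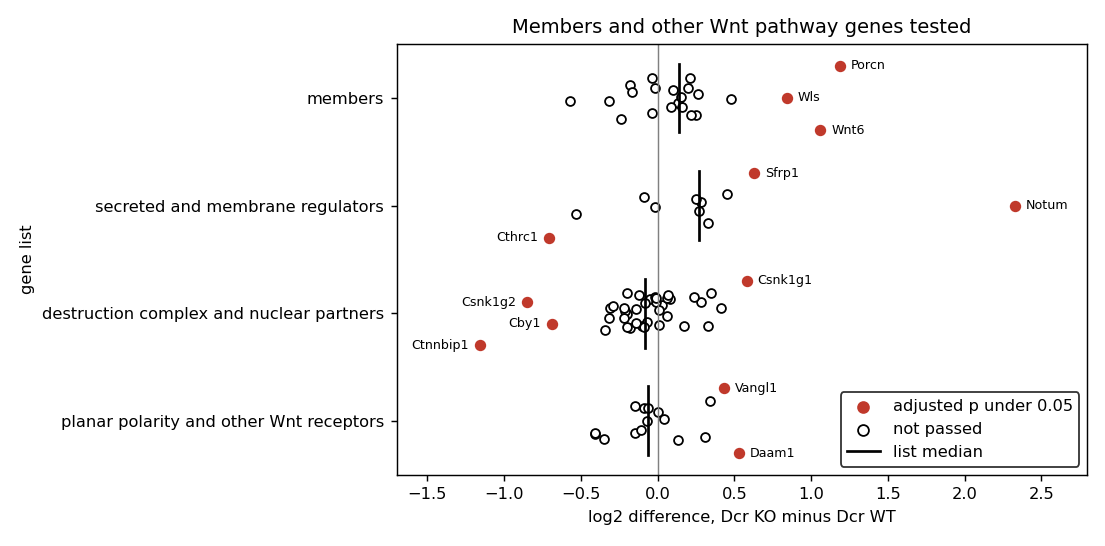
Log2 difference (Dcr KO minus Dcr WT, horizontal axis) of the 22 tested genes of the set (top row, members) and of the other tested Wnt pathway genes in 3 lists; each point is a gene, filled points with names passed at an adjusted p under 0.05, and the black line is the list median. The medians are 0.14, 0.27, -0.08 and -0.06 from top to bottom, and Notum (2.33) and Ctnnbip1 (-1.16) lie farthest out.

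The promoters of Wls and Wnt6 are given as a description of their sequence, and Porcn had no entry among those used here. RefSeq (GRCm38.p6) promoter windows of 250 bases before and 50 after the start were matched for both, and 30 of the 45 genes had at least 1. They are written 5′ to 3′ on the plus strand with CG dinucleotides in capitals, Wls at chr3:159839400-159839699 and Wnt6 at chr1:74771642-74771941.
Wls: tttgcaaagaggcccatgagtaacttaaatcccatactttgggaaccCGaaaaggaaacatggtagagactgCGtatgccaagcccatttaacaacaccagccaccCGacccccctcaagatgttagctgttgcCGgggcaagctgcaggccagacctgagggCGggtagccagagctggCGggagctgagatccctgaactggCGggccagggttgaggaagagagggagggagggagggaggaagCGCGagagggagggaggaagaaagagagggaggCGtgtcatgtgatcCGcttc
Wnt6: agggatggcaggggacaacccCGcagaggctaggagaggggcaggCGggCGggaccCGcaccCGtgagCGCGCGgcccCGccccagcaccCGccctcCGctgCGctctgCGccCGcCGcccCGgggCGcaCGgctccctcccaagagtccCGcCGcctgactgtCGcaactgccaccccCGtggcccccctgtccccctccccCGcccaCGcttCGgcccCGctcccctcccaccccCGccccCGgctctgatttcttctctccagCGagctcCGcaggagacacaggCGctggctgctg
Both windows lie above the medians of all promoters in G and C content and in CG dinucleotides, to unlike degrees. The Wnt6 window is 76.7% G and C with 31 CG dinucleotides, a number that 10.6% of all 32851 promoters reach, while the Wls window is 58.0% G and C with 11, which 41.4% reach, and the medians over all promoters are 52.7% and 7. Neither holds the TCF motif letters CTTTGAT or CTTTGAA on either strand, searched together, which are found in 8.65% of all promoters and in 3 of 35 windows of the set (8.57%), those of Wnt5b, Wnt11 and Gsk3a. A match of letters is a description and no binding was measured.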

How the data were processed

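The values are log2 signals as deposited, 1 for each probe set on each array. Upstream tools, by the submitters' processing notes, were GCRMA (2.20.0) run in R (2.11.1). A joint normalization with other arrays is neither stated nor excluded for these values, and 0 array columns were left unused. Of 45037 probe sets, 34945 carried 1 symbol in the platform annotation, and their log2 values were averaged per gene. The number of arrays, 3 per group, limits the precision. Dcr KO was compared with Dcr WT in limma (3.58.1, under R 4.3.3; lmFit, then eBayes) over genes whose 6-array mean reached 16 on the linear scale, with Benjamini-Hochberg adjustment over all 8782, called at 0.05. The fit was tested on simulated data. Other steps used pandas 2.3.3 and numpy 2.4.6 under Python 3.11.15. Promoters and miRNAs came from RefSeq tables.

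The genes of the set and all lists were chosen with earlier results of these data known. Every tested gene of the set is named, those under the minimum by their range, single bright probe sets where they differ in sign or by over 0.5, and of the other pathway genes those that passed. Alternatives were no minimum, the minimum applied to Dcr WT means, the brightest probe set, bright probe sets only (added after seeing the data), an intensity trend, quantile normalization, median centring, a replicate block and leaving out each array.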

Additional observations from a re-analysis of the deposited data

How the results depend on the processing

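Porcn and Wls kept their calls under all 14 alternatives, and no gene of the set was called lower under any. The count of genes of the set called higher was 2 with the replicate block, 4 with the brightest probe set (Tcf7l2 added) and 2 to 3 with 1 array left out. The count up at least 1.2-fold was 9 with the brightest probe set and 4 to 7 with 1 array left out, and the count down at least 1.2-fold was 5 and 1 to 4. The median difference was 0.08 with no minimum, -0.03 with the brightest probe set and 0.04 to 0.19 with 1 array left out. Of the other pathway genes, 1 to 4 were higher and 2 to 3 lower with 1 array left out, 2 and 2 with the replicate block, and 7 higher and 7 lower with the brightest probe set. The cause was not tested.

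The labels state no pairing of the replicates. Same-numbered arrays deviated from their group means with correlations of -0.217, -0.022 and 0.029, and the other matches of a Dcr KO with a Dcr WT array ran from -0.227 to 0.314. With so few arrays these values cannot show whether any were paired. With the number as a block, Wnt6 had an adjusted p of 0.0622.

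Signs turned for genes that had not passed. With the brightest probe set, Csnk1a1 gave -0.02, Dvl2 -0.08, Fzd7 -0.03, Lrp6 -0.04 and Wnt7b -0.09, and bright probe sets only gave -0.03 for Fzd7 and -0.09 for Wnt7b. With 1 array left out, Axin1 ran from -0.17 to 0.06, Fzd2 from -0.07 to 0.00, Fzd5 from -0.08 to 0.07, Gsk3b from -0.03 to 0.20 and Wnt4 from -0.29 to 0.01. Over the 22 tested genes, 287 of the values under alternatives kept direction and side of the threshold. Dim probe sets limit what can be said of the 23 untested genes.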
